A study of Mus musculus with 27 samples.

Results

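Iron handling was followed in cultured mouse glia through 10 genes: Lcn2, Fth1, Ftl1, Slc40a1, Tfrc, Trf, Cp, Slc11a1, Slc11a2 and Hamp. They were taken by symbol, and each symbol matched 1 of the 54532 genes in the deposited table of read counts. The cells were mixed glia from the cortex of C57BL/6 pups aged 3 to 6 days, kept in culture for 14 days and treated for 24 h. In experiment 1 the cultures received LPS with IFNγ and bryostatin, LPS with IFNγ, LPS with bryostatin, LPS, or nothing. In experiment 2 they received IL4 with bryostatin, IL4, bryostatin, or nothing. Doses were 100 ng/mL LPS, 20 ng/mL IFNγ, 20 ng/mL IL4 and 50 nM bryostatin, and every group had 3 libraries. LPS is a component of the outer membrane of bacteria that activates innate immune cells, IFNγ and IL4 are cytokines of lymphocytes, and bryostatin modulates protein kinase C. The labels name no altered allele and do not say whether replicates were separate cultures or animals, so the p-values reflect how far the libraries of a group differ, and that spread may be technical. All groups were bulk RNA of a culture that holds several glial types, so fewer cells of a type and less RNA per cell cannot be told apart in any value below.

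Cells take up iron bound to transferrin (Trf) through the transferrin receptor (Tfrc), move ferrous iron out of endosomes through the divalent metal transporter encoded by Slc11a2, store it in ferritin cages built of heavy (Fth1) and light (Ftl1) subunits, and release it through ferroportin (Slc40a1), helped by the ferroxidase ceruloplasmin (Cp). Slc11a1 encodes a metal transporter of phagosomes, hepcidin (Hamp) is the hormone that makes cells degrade ferroportin, and lipocalin 2 (Lcn2) binds bacterial siderophores and so withholds iron from bacteria. In the brain, Lcn2 is known as a product of reactive astrocytes, and microglia take up and store iron during inflammation. Iron-regulatory proteins bind hairpins called iron-responsive elements when iron is scarce: in the 5′ UTR they block translation of ferritin and ferroportin mRNA, and in the 3′ UTR they stabilise Tfrc mRNA.

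The hairpins are shown because their letters lie in 4 of the genes, and the control described above acts partly on translation, which RNA levels do not measure. The letters searched were a C, 5 bases, CAGTG followed by A, C or T, and 5 bases that pair with the first 5, G to T pairs allowed. They occurred 7 times in 4 of the 10 genes, among 43 coding transcripts in GENCODE M21 on GRCm38 (mm10), and in 1.01% of all 21901 genes with a coding transcript. All 5 pairs were required, so the search misses elements of another shape, and a gene without these letters may still carry one. Capitals mark the unpaired C and the loop. The first 3 lie in the 5′ UTR and the other 4 in the 3′ UTR, each on the strand of its gene:
Fth1, chr19:9982732-9982761, plus strand: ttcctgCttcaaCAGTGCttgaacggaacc
Ftl1, chr7:45459778-45459807, minus strand: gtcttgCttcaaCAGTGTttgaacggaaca
Slc40a1, chr1:45925464-45925493, minus strand: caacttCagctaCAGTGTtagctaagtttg
Tfrc, chr16:32631219-32631248, plus strand: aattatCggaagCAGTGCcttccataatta
Tfrc, chr16:32631598-32631627, plus strand: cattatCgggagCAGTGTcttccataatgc
Tfrc, chr16:32631663-32631692, plus strand: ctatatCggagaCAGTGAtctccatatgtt
Tfrc, chr16:32631710-32631739, plus strand: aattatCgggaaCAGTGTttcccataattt

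The upstream bases of Lcn2 are shown because this gene had the largest change of the members. The stretch is RefSeq's, on GRCm38.p6, at chr2:32387798-32387989 on the minus strand, it ends just before the start of the main annotated transcript, and it overlaps an exon of another annotated transcript. Capitals mark letters of the C/EBP motif TTGCNNAA, 216 bases before the RefSeq start, and of the NF-kappaB motif (3 G, 5 bases of any kind, CC) read on the other strand, 102 bases before it. Both strands were searched in the 250 bases before the start, and of 32851 such windows 9.56% held the C/EBP letters and 45.8% the NF-kappaB letters, so the matches are a description and no evidence of binding.
Lcn2 upstream: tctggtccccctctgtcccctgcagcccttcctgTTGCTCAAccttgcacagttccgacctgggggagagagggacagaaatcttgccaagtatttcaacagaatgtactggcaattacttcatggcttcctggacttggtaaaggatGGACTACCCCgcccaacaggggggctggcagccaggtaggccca

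Total counts ran from 17230058 to 28687281 per library, so 3 counts equal 0.105 to 0.174 CPM (a gene's share of its library's counts on the usual scale, corrected with TMM factors) in a single library. The untreated libraries labelled replicate 1 stood apart in both experiments: across genes, the Pearson r of that of experiment 1 was 0.996 with untreated replicates 2 and 3 of experiment 2, against 0.975 and 0.976 with those of its own group, and that of experiment 2 had 0.986 and 0.979 against 0.968 and 0.961. Pdgfra, a receptor of oligodendrocyte precursors, read 4.02, 141.8 and 162.4 CPM in untreated replicates 1, 2 and 3 of experiment 1, and 90.5, 5.22 and 5.27 CPM in those of experiment 2. Whether these 2 libraries were exchanged between the experiments was not tested, and they are used as labelled. Where leaving out both changed a call on a member, the value without them is given. In comparisons that hold no untreated library they enter only indirectly, through the shared spread, the filter on low counts and the TMM factors. Shares of genes called without them thus rest on another set of tested genes. Bryostatin replicate 2 also stood apart from its group, with an r of 0.979 against 0.996 between the other 2. Markers of astrocytes and microglia were detected in every library, and those of neutrophils, another source of Lcn2, summed to 3.8 to 5.74 CPM with LPS and to 0 to 0.165 CPM in untreated cultures, with 5 of the 7 at 0 in every LPS library.

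**Figure D1:**
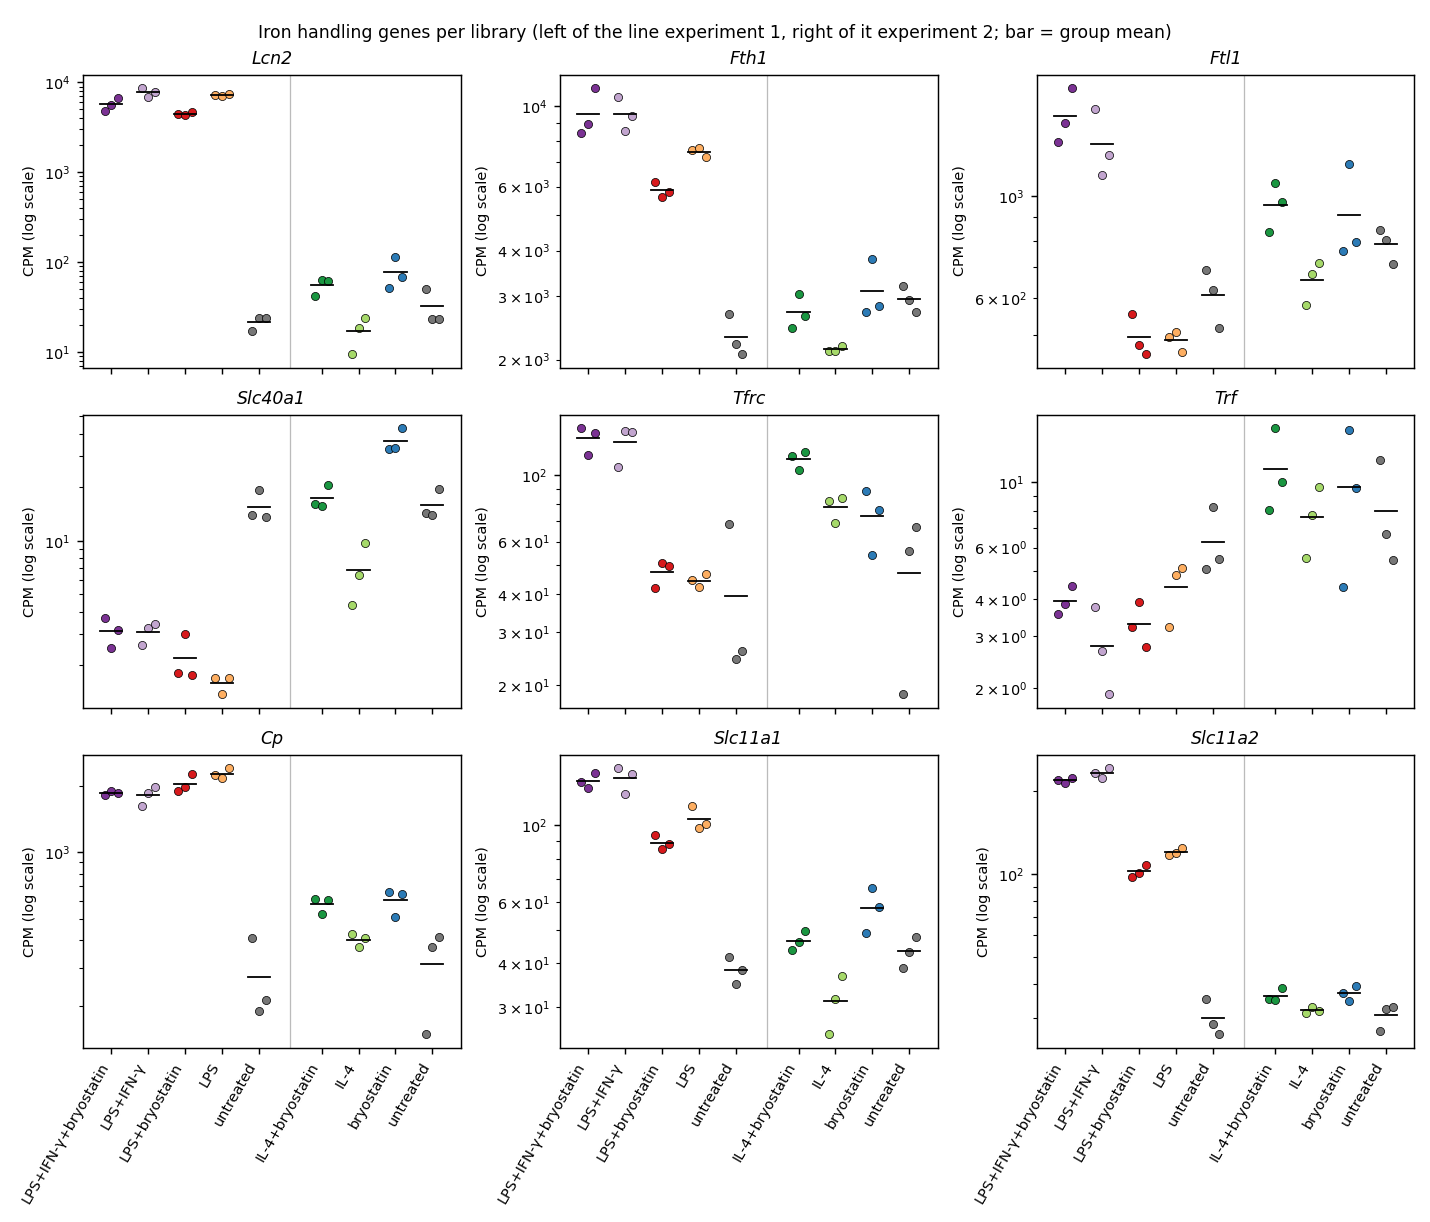
Level of each measured member in every library, in CPM on a log axis, with experiment 1 left of the grey line and experiment 2 right of it; dots are libraries and bars group means. Lcn2 lies between 4338.8 and 8698 CPM in the 12 libraries with LPS. In the untreated libraries of experiment 1 it lies between 17.3 and 23.7 CPM, and Slc40a1 moves the other way with LPS.

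LPS raised 5 of the 9 members that could be tested and lowered 1. Calls were made where the adjusted p of edgeR's quasi-likelihood test over all genes was under 0.05, Hamp was too low to test, and log2 fold changes are given with their SE. With LPS against no treatment, Lcn2, Fth1, Cp, Slc11a1 and Slc11a2 rose and Slc40a1 fell, in a comparison where 38.4% of all genes were called, 19.5% higher and 18.8% lower. The groups did not overlap for 7 of the 9, against 51.1% of all genes, and the members' median log2 fold change was 1.46, against -0.01 over all genes. With LPS and IFNγ against no treatment all 9 were called, 7 higher and 2 lower (Slc40a1 and Trf), where 58.1% of genes were called, 29.5% higher and 28.6% lower; all 9 were without overlap, against 58.5%. These 2 comparisons share the untreated libraries.

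IFNγ on top of LPS raised 6 members and lowered none in the fit of all libraries, where 36% of genes were called, 19.2% higher and 16.8% lower. The 6 were Fth1, Ftl1, Slc40a1, Tfrc, Slc11a1 and Slc11a2, and 7 of the 9 members were without overlap between the groups, against 52.3% of genes. Lcn2 was not among the 6, with a log2 fold change of 0.1 ± 0.13 (adjusted p = 0.56), and Cp had -0.31 ± 0.21 (adjusted p = 0.28). Without both untreated libraries labelled replicate 1, Cp (-0.31 ± 0.08, edgeR adjusted p = 0.0061) and Trf (-0.65 ± 0.25, adjusted p = 0.044) were called lower, so that 8 of the 9 were called, where 42.8% of genes were. The members' median log2 fold change was 0.4, against -0.01 over all genes.

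Bryostatin moved fewer members. Added to LPS it lowered Lcn2 alone among the 9, where 6.89% of genes were called, 3.35% higher and 3.55% lower; 5 of the 9 were without overlap, against 35.3%. Added to LPS with IFNγ it changed 0 of 9 in edgeR (1 at an unadjusted p under 0.05, and 1 called by DESeq2, Lcn2 in both), where 3.38% of genes were called (1.8% higher, 1.58% lower) and 20.3% were without overlap, as was 1 member. Bryostatin alone raised Slc40a1, where 3.62% of genes were called (2.11% higher, 1.51% lower) and 5 of the 9 members were without overlap, against 18.3%. Added to IL4 it raised Lcn2 and Slc40a1, where 4.13% of genes were called, 2.7% higher and 1.42% lower; 8 of the 9 were without overlap and higher, against 36.5% of genes without overlap in either direction. IL4 against no treatment changed 0 of 9 in edgeR (4 at an unadjusted p under 0.05, and 1 called by DESeq2), where 0.583% of genes were called (0.5% higher, 0.0833% lower) and 4 members were without overlap, against 23.2%. Bryostatin's effect on a member did not pass the test of a difference between LPS with and without IFNγ (0 of 9 in edgeR and in DESeq2, 1 at an unadjusted p under 0.05, where 0.118% of genes were called, 0.0684% higher and 0.0498% lower) or between IL4 and no stimulus (0 of 9 by all 3 counts, where 0% of genes were called). The comparison of bryostatin and that of IL4 share untreated libraries, and LPS libraries stand in both the IFNγ and the bryostatin comparison with LPS.

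**Figure D2:**
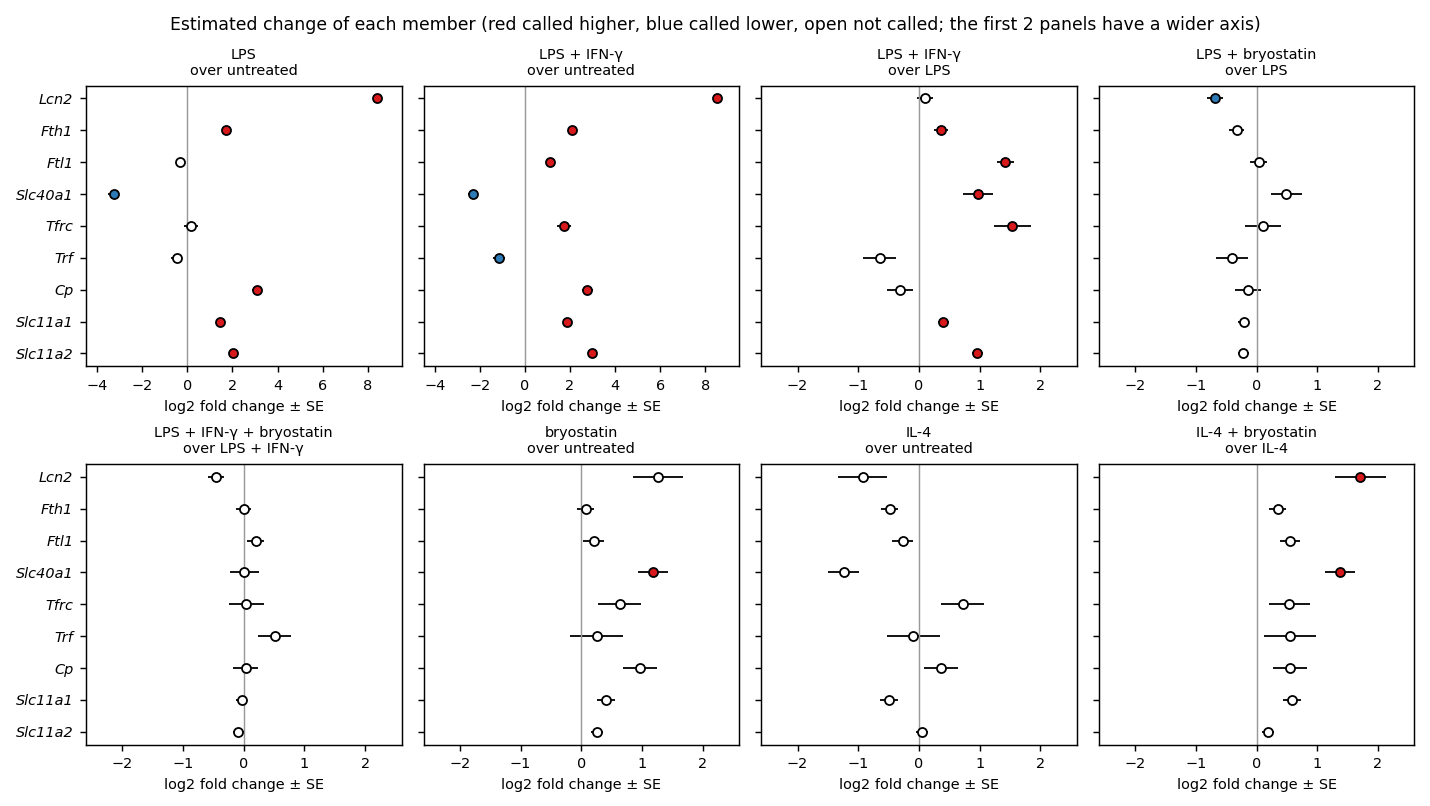
Log2 fold change of the 9 tested members in each comparison, with bars of 1 SE; filled red points were called higher, filled blue points lower, open points not called. The LPS panels show Lcn2 far to the right at 8.43 and 8.53 and Slc40a1 to the left at -3.27 and -2.3, and their axis is wider than that of the other panels.

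Lcn2, the siderophore-binding lipocalin (chr2:32384633-32388252, mm10, in the deposited annotation, as for the positions that follow), had 7291.2, 7115.8 and 7519.1 CPM with LPS, against 17.3, 23.7 and 23.6 CPM in untreated cultures. Every LPS library was over all untreated ones by a wide margin. The fold was 344.2 and the log2 fold change 8.43 ± 0.18 (edgeR, adjusted p = 1.1e-14). On the scale that accounts for gene length, the deposited FPKM, Lcn2 averaged 2775.2 ± 79.2 with LPS and 8.14 ± 1.37 in untreated cultures (SD, n = 3 each), and it took up to 0.773% of a library's counts. Summed astrocyte markers were lower with LPS, at 8774.7 to 9304.8 CPM against 11376.6 to 14653.7 CPM untreated (2 of 8 called higher, 4 lower), and those of fibroblasts higher, at 3698.8 to 4467.8 CPM against 1195.5 to 2613 CPM (4 of 5 called higher). Their part in the changes with LPS was not tested.

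Bryostatin lowered this high level in part. Lcn2 read 4411.8, 4338.8 and 4649.3 CPM with LPS and bryostatin, against the LPS values above, and the groups did not overlap. That is 0.618 of the LPS level (log2 -0.69 ± 0.13, 95% interval -0.94 to -0.45, edgeR adjusted p = 0.0028). The call held without each of the 6 libraries in turn and ended in a fit of all 27 libraries (-0.71, adjusted p = 0.22). With IFNγ present as well, LPS, IFNγ and bryostatin gave 4819.4, 5574.1 and 6674.5 CPM, against 8698, 6827.2 and 7871 CPM with LPS and IFNγ. These groups did not overlap either, though the gap between them was small, and the log2 fold change of -0.46 ± 0.13 missed the threshold (edgeR adjusted p = 0.061); DESeq2 called it (-0.45, adjusted p = 0.013), as did edgeR without both untreated libraries labelled replicate 1 (-0.46 ± 0.1, adjusted p = 0.0065). The difference between the bryostatin effects with and without IFNγ was 0.24 ± 0.18 (95% interval -0.11 to 0.59, edgeR adjusted p = 0.96). Astrocyte markers moved with Lcn2: their summed level was 6722.3 to 6996.1 CPM with LPS and bryostatin, against 8774.7 to 9304.8 CPM with LPS, and of 8 markers 1 was called higher and 3 lower. Microglial markers summed to 481.7 to 541.9 CPM against 675.2 to 734.7 CPM, with 3 of 8 called lower. The part of these markers in the Lcn2 result was not tested.

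Without LPS, Lcn2 was higher with bryostatin. In IL4 with bryostatin it read 42.4, 63.4 and 62.1 CPM, against 9.43, 18.4 and 23.8 CPM with IL4. All 3 bryostatin libraries were above all 3 with IL4 alone, for a log2 fold change of 1.71 ± 0.42 (fold 3.27, edgeR adjusted p = 0.045). This call ended when any 1 of the 6 libraries was left out (1.41 to 2.02, adjusted p 0.062 to 0.17). Bryostatin alone gave 50.9, 115.3 and 67.8 CPM, against 50.1, 23.3 and 23.1 CPM untreated. The groups almost touched, through untreated replicate 1, and the log2 fold change of 1.26 ± 0.41 was not called (edgeR adjusted p = 0.12). With all libraries kept, DESeq2 called it (1.27, adjusted p = 0.023), as did edgeR on all 27 libraries (1.28, adjusted p = 0.011). The other settings with all libraries did not. Without both untreated libraries labelled replicate 1 it was 1.73 ± 0.39 (edgeR adjusted p = 0.043), and without bryostatin replicate 2 it was 0.88 (adjusted p = 0.18). Astrocyte markers were again lower with bryostatin here, at 7615.8 to 8715.9 CPM with IL4 and bryostatin and 10712.4 to 11386.5 CPM with IL4, while microglial markers overlapped (1383.8 to 1758.4 against 1040.8 to 1437.4 CPM).

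Lcn2 thus fell with bryostatin in LPS cultures and rose with it in IL4 cultures. The difference of the 2 effects, a comparison chosen after seeing the data and fitted on all 27 libraries, was -2.41 ± 0.43 on the log2 scale (edgeR, adjusted p = 0.0023), where 2.69% of 16647 genes were called, 0.703% higher and 1.98% lower. Slc11a1 (-0.8 ± 0.17, adjusted p = 0.01) and Fth1 (-0.69 ± 0.18, adjusted p = 0.042) were also called lower, and the other 6 tested members were not. The Lcn2 difference kept its call without each of the 12 libraries in turn (-2.72 to -2.12), as did that of Slc11a1 (-0.94 to -0.67), whereas that of Fth1 lost it in 11 of 12 (adjusted p 0.062 to 0.13). LPS and IL4 were used in different experiments, so stimulus and experiment cannot be told apart in this difference.

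Ferritin heavy chain mRNA (Fth1, chr19:9982703-9985092), one of the transcripts with a 5′ UTR hairpin above, had 7568.4, 7653.2 and 7251.7 CPM with LPS, against 2673.3, 2207.5 and 2069.8 CPM in untreated cultures. All LPS libraries were well above the untreated ones, with a log2 fold change of 1.71 ± 0.13 (fold 3.27, edgeR adjusted p = 1.6e-08). LPS with IFNγ gave 10637, 8551.6 and 9393.2 CPM, all above the LPS libraries, with a log2 fold change of 0.36 ± 0.12 over LPS (edgeR adjusted p = 0.033) that lost its call in 5 of 6 fits without 1 library (adjusted p 0.066 to 0.13). Per length it was the most abundant member in untreated cultures, at 2653.3 ± 368.6 FPKM, against 8615.4 ± 238.4 FPKM with LPS.

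The light chain mRNA (Ftl1, chr7:45457944-45459884), which carries the other ferritin hairpin shown above, was not higher with LPS. It had 494.6, 507.6 and 458.2 CPM with LPS, against 691.2, 624.3 and 516.9 CPM untreated. The LPS libraries were all slightly lower, and the log2 fold change of -0.31 ± 0.14 was not called (edgeR adjusted p = 0.09). With LPS and IFNγ it read 1545.3, 1109.8 and 1228.9 CPM, every library above all those with LPS alone and all untreated ones. Its log2 fold change was 1.42 ± 0.14 over LPS (edgeR adjusted p = 9.3e-07) and 1.11 ± 0.14 over no treatment (adjusted p = 4.3e-06). Near-identical copies could share Ftl1 reads. Among the copies searched by name, Ftl1-ps1 had the most counts and reached at most 14.3 CPM in a library. Reads that fit more than 1 place were not examined, so this does not show how many reads Ftl1 lost.

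The balance of the chains stood at separate levels between the stimuli. The ratio of Fth1 to Ftl1 in FPKM was 23.8 ± 0.611 with LPS and 5.88 ± 0.374 in untreated cultures (SD, n = 3 each), and 11.5 ± 0.666 with LPS and IFNγ. Every LPS library (23.3 to 24.5) was above every LPS and IFNγ library (10.7 to 11.9), and these were above every untreated one (5.47 to 6.2). With bryostatin the ratio was lower without overlap in all 4 pairs of groups: 17.3 to 19.8 against 23.3 to 24.5 with LPS, 9.61 to 10.1 against 10.7 to 11.9 with LPS and IFNγ, 4.2 to 4.53 against 4.72 to 5.63 with IL4, and 4.99 to 5.49 against 5.62 to 5.9 in unstimulated cultures. For each of these pairs the exact two-sided permutation p was 0.1, the smallest that 3 against 3 libraries can give. Neither chain by itself was called in any bryostatin comparison in the edgeR fit of each experiment with all its groups. Fth1 was at -0.33 ± 0.12 with LPS (edgeR adjusted p = 0.13) and Ftl1 at 0.55 ± 0.17 with IL4 (adjusted p = 0.1). Ftl1 with IL4 was called in DESeq2 (0.55, adjusted p = 0.031) and in the edgeR fit of all 27 libraries (0.54, adjusted p = 0.035). With no filter on low counts, edgeR called Fth1 with LPS (-0.34, adjusted p = 0.028). Fits of only the compared groups called Fth1 with LPS and both chains with IL4. Without both untreated libraries labelled replicate 1, Fth1 with LPS and bryostatin over LPS was called lower (-0.33 ± 0.1, edgeR adjusted p = 0.027).

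**Figure D3:**
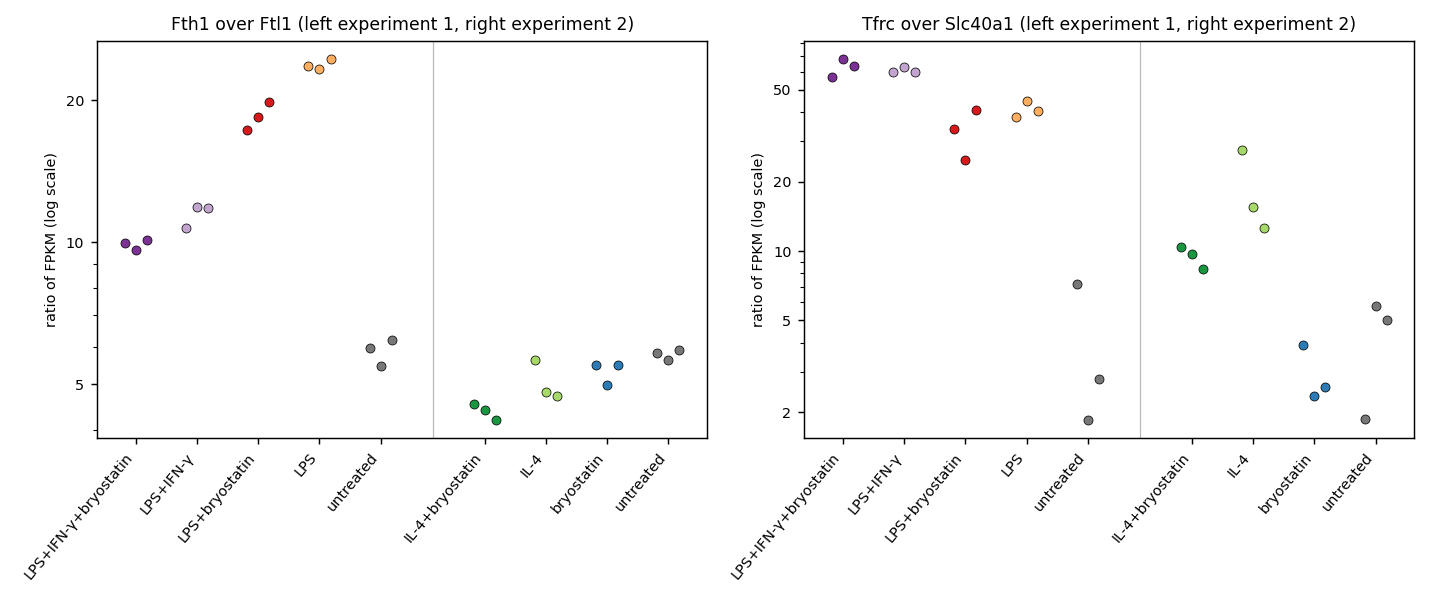
Ratio of FPKM per library on log axes, Fth1 over Ftl1 at left and Tfrc over Slc40a1 at right, each with experiment 1 left of the grey line. The chain ratio is 23.3 to 24.5 with LPS and 5.47 to 6.2 in untreated cultures, and the uptake to export ratio is 38.1 to 44.8 with LPS and 1.85 to 7.17 in untreated cultures.

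Ferroportin mRNA (Slc40a1, chr1:45908068-45926523), the iron exporter, was the one member that fell with LPS. It had 1.7, 1.37 and 1.69 CPM with LPS, against 13.9, 19.2 and 13.6 CPM untreated. All LPS libraries were far below the untreated ones, at 0.104 of their level (log2 -3.27 ± 0.24, edgeR adjusted p = 1.3e-08), and the LPS value rests on 88 counts over 3 libraries. With LPS and IFNγ it read 2.58, 3.25 and 3.4 CPM, higher than with LPS by 0.97 ± 0.25 on the log2 scale (edgeR adjusted p = 0.007) and still lower than untreated by a log2 change of -2.3 ± 0.22 (adjusted p = 2.3e-07). Microglial markers moved the same way as Slc40a1 with LPS, 675.2 to 734.7 CPM with LPS and 1179.4 to 1397.7 CPM untreated, with 6 of 8 called lower and 2 higher and a median log2 fold change of -1.44. With IFNγ added they did not, since 7 of 8 were lower than with LPS. Their part in the Slc40a1 result was not tested.

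In experiment 2 ferroportin was the member with the most bryostatin calls in the edgeR fit of all its libraries. Without both untreated libraries labelled replicate 1, Lcn2 and Cp were called in both bryostatin pairs, and ferroportin only with IL4. With all libraries, ferroportin had 32.7, 33.4 and 43.1 CPM with bryostatin, against 14.4, 14 and 19.5 CPM untreated. That is a log2 fold change of 1.18 ± 0.24 (fold 2.27, edgeR adjusted p = 0.026). Ferroportin had 16.2, 15.6 and 20.7 CPM with IL4 and bryostatin, against 4.36, 6.46 and 9.67 CPM with IL4, a log2 fold change of 1.37 ± 0.25 (fold 2.58, adjusted p = 0.014). In both pairs all bryostatin libraries were above all libraries without it, by 0.19 ± 0.35 more on the log2 scale with IL4 (95% interval -0.5 to 0.87, edgeR adjusted p = 0.94). The call for bryostatin alone held without its replicate 2 (1.25, adjusted p = 0.039) and was lost without bryostatin replicate 1 or 3 or untreated replicate 1 or 2 (1.04 to 1.25, adjusted p 0.06 to 0.092). The call with IL4 was lost without IL4 replicate 1 or 2 or IL4 with bryostatin replicate 3 (adjusted p 0.051 to 0.073).

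IL4 by itself gave lower ferroportin libraries than no treatment, without overlap. The log2 fold change was -1.24 ± 0.26 (edgeR adjusted p = 0.063), past the threshold in DESeq2 (-1.23, adjusted p = 7.1e-04). Without IL4 replicate 3 edgeR called it too (-1.57, adjusted p = 0.017). With IL4 and bryostatin the ferroportin level overlapped that of untreated cultures, at 17.5 ± 2.79 and 16 ± 3.02 CPM (SD, n = 3 each). Microglial markers summed to 1040.8 to 1437.4 CPM with IL4 and 1331.3 to 1552.3 CPM untreated, 1 of 8 called lower.

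With LPS, bryostatin left ferroportin at low levels. LPS with bryostatin gave 1.81, 3.01 and 1.76 CPM, all just over the LPS libraries, with a log2 fold change of 0.49 ± 0.26 that was not called (95% interval -0.01 to 0.99, edgeR adjusted p = 0.32). LPS with IFNγ and bryostatin gave 3.68, 2.49 and 3.15 CPM, which overlapped LPS with IFNγ (0.01 ± 0.24, adjusted p = 0.99).

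Ceruloplasmin (Cp, chr3:19957054-20009145), the copper enzyme that oxidises iron as it leaves the cell, moved opposite to ferroportin with LPS. It had 2239.8, 2167.8 and 2410.4 CPM with LPS, against 408.6, 191.4 and 213.3 CPM untreated. The groups were far apart although untreated replicate 1 had about the Cp level of the other untreated libraries of experiment 2, 373.7 and 413.2 CPM. The log2 fold change was 3.08 ± 0.23 (fold 8.47, edgeR adjusted p = 7.3e-08), and 3.52 ± 0.11 without both untreated libraries labelled replicate 1. LPS with IFNγ gave 1619.3, 1852.4 and 1987.1 CPM, a log2 fold change of 2.77 ± 0.23 over no treatment (adjusted p = 1.0e-07). Reads of Cp and of Hps3 on the other strand cannot be told apart where they overlap, and Hps3 averaged 19.8 CPM.

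Cp was also above untreated levels with bryostatin alone, at 663.8, 509.9 and 649 CPM, against 149.1, 373.7 and 413.2 CPM untreated. The groups did not overlap, and the low untreated value is that of replicate 1. The log2 fold change of 0.96 ± 0.28 was not called (edgeR adjusted p = 0.088). DESeq2 called it (0.96, adjusted p = 0.018), as did edgeR on all 27 libraries (0.96, adjusted p = 0.023), and the other settings with all libraries did not. Without both untreated libraries labelled replicate 1 it was smaller and called, 0.62 ± 0.14 (edgeR adjusted p = 0.039). With IL4 and bryostatin Cp had 614.1, 524.5 and 608.8 CPM, against 425.4, 372.4 and 407.3 CPM with IL4 (0.55 ± 0.28, adjusted p = 0.37, and 0.018 without those 2 libraries).

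The transferrin receptor (Tfrc, chr16:32608920-32632794), whose mRNA carries the 3′ UTR hairpins above, had 44.6, 42.2 and 46.7 CPM with LPS, against 68.7, 24.3 and 25.9 CPM untreated. The LPS libraries lie between untreated replicate 1 and the other 2, so the groups overlap and the log2 fold change of 0.18 ± 0.31 was not called (edgeR adjusted p = 0.68). Without both untreated libraries labelled replicate 1 it was 0.86 ± 0.13 and called (adjusted p = 2.0e-05), so 1 library decides this result. With LPS and IFNγ, Tfrc read 106.2, 140 and 139.2 CPM, above every LPS and every untreated library. The log2 fold change was 1.54 ± 0.3 over LPS (adjusted p = 0.0014) and 1.72 ± 0.31 over no treatment (adjusted p = 2.9e-04), and 2.4 ± 0.13 over no treatment without both untreated libraries labelled replicate 1.

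In experiment 2 Tfrc had 115.6, 103.8 and 119.1 CPM with IL4 and bryostatin, 81.9, 68.9 and 83.5 CPM with IL4, 88.4, 54.3 and 76.1 CPM with bryostatin, and 18.6, 55.7 and 67.2 CPM untreated. IL4 with bryostatin was above IL4 in every library, and IL4 above untreated, while bryostatin alone overlapped untreated. None of the 3 comparisons was called in the edgeR fit of all libraries of the experiment. IL4 with bryostatin over IL4 had 0.54 ± 0.34 (adjusted p = 0.5). IL4 over untreated had 0.72 ± 0.35 (adjusted p = 0.45), and bryostatin over untreated 0.63 ± 0.35 (adjusted p = 0.36). An edgeR fit of only the compared groups called IL4 with bryostatin over IL4 (0.52, adjusted p = 0.0027). The untreated libraries divide here as they do in experiment 1, though replicate 1 is the lowest here and the highest there.

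**Figure D4:**
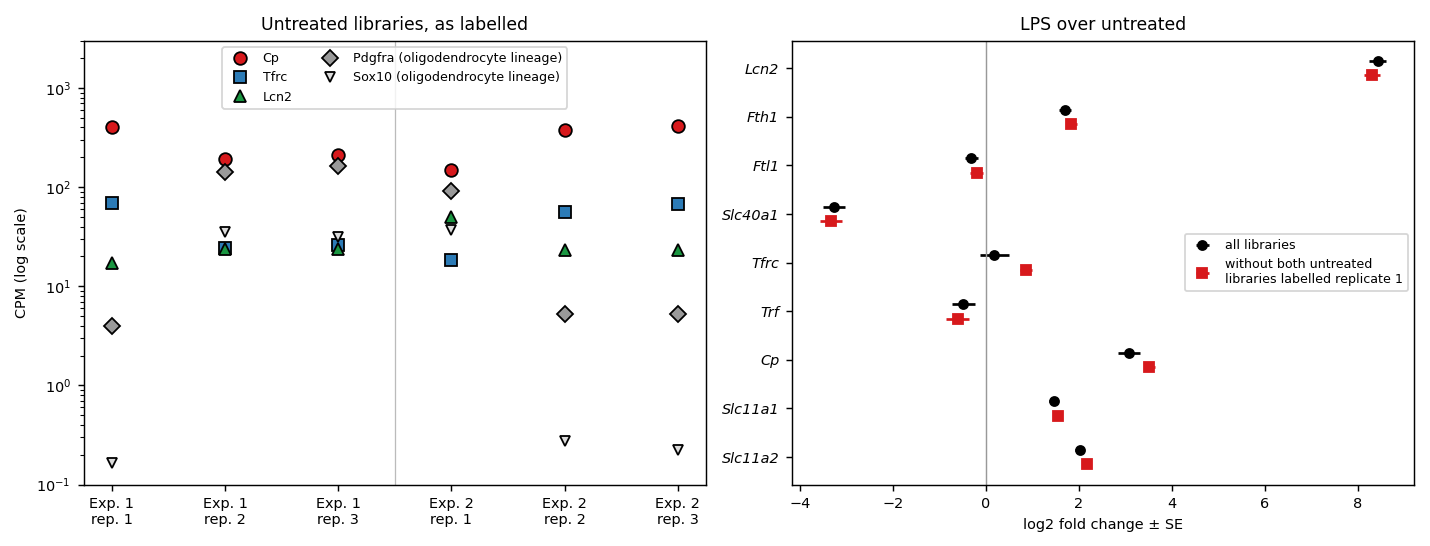
Left, CPM on a log axis of Cp, Tfrc, Lcn2 and the oligodendrocyte lineage genes Pdgfra and Sox10 in the 6 untreated libraries as labelled. Right, log2 fold change with LPS over no treatment (bars 1 SE) with all libraries and without both untreated libraries labelled replicate 1: Tfrc is at 0.18 with them and at 0.86 without, and Cp at 3.08 and 3.52.

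Set against ferroportin, the receptor gives a ratio of uptake to export mRNA. The ratio of Tfrc to Slc40a1 in FPKM was 41.1 ± 3.42 with LPS and 60.8 ± 1.69 with LPS and IFNγ, against 3.93 ± 2.84 in untreated cultures (SD, n = 3 each). Every library with LPS (38.1 to 44.8) or with LPS and IFNγ (59.6 to 62.7) was above the untreated ones (1.85 to 7.17), and the exact two-sided permutation p was 0.1, the smallest possible here. It was 8.38 to 10.4 with IL4 and bryostatin, against 12.6 to 27.3 with IL4, and IL4 was above untreated cultures at 1.87 to 5.78, again without overlap and with an exact permutation p of 0.1 each. Bryostatin alone, at 2.36 to 3.93, overlapped untreated cultures (exact permutation p = 0.5). Added to LPS, bryostatin gave 24.7 to 41.1, against 38.1 to 44.8 with LPS (exact permutation p = 0.3). Added to LPS with IFNγ it gave 56.6 to 68.2, against 59.6 to 62.7 with LPS and IFNγ (exact permutation p = 0.6), so the groups overlapped in both pairs.

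Transferrin itself (Trf, chr9:103204001-103230444), which carries iron outside cells, was low in all groups. It had 3.77, 2.67 and 1.9 CPM with LPS and IFNγ, against 5.07, 8.22 and 5.48 CPM untreated. All 3 were below the untreated libraries (log2 -1.14 ± 0.27, edgeR adjusted p = 0.0017). LPS gave 3.23, 4.84 and 5.12 CPM, which overlapped untreated cultures and was not called (-0.48 ± 0.25, adjusted p = 0.15). In experiment 2 its levels ran from 4.39 to 15.3 CPM, the groups overlapped in all 3 comparisons, and none was called. Markers of the oligodendrocyte lineage, which makes Trf in the brain, summed to 222.4 to 236.9 CPM with LPS and IFNγ, against 557.7 to 750.9 CPM untreated, with 4 of 7 tested called lower and 0 higher. Microglial markers summed to 438.2 to 500.1 CPM with LPS and IFNγ, against 1179.4 to 1397.7 CPM untreated, with 6 of 8 called lower and 1 higher. Their part in the Trf result was not tested.

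Both divalent metal transporters rose with LPS and further with IFNγ. Slc11a2 (chr15:100387898-100425072), the transporter of endosomes, had 117.3, 118.9 and 123.9 CPM with LPS, against 35.2, 28.5 and 26.2 CPM untreated, and 232.6, 223.2 and 242.2 CPM with LPS and IFNγ. The 3 groups are separate by wide gaps, with log2 fold changes of 2.02 ± 0.1 for LPS over no treatment (edgeR adjusted p = 5.8e-11) and 0.96 ± 0.09 for LPS and IFNγ over LPS (adjusted p = 5.7e-07). Slc11a1 (chr1:74375195-74386062), the phagosomal transporter of macrophages, had 113.7, 98 and 100.6 CPM with LPS, against 41.7, 34.9 and 38.2 CPM untreated, and 145.8, 122.9 and 140.2 CPM with LPS and IFNγ. Here too the groups did not overlap, at 1.46 ± 0.09 (adjusted p = 2.1e-09) and 0.4 ± 0.09 (adjusted p = 0.0024). Slc11a1 rose while the summed microglial markers were lower with LPS, as given above for ferroportin.

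Bryostatin with LPS gave lower libraries of both, without a call in the edgeR fit of all libraries of experiment 1. Slc11a2 had 97.9, 100.8 and 107.8 CPM and Slc11a1 93.6, 85.1 and 88.2 CPM with LPS and bryostatin, all below the LPS libraries, with log2 fold changes of -0.22 ± 0.09 (edgeR adjusted p = 0.19) and -0.21 ± 0.09 (adjusted p = 0.2). An edgeR fit of only the compared groups called both lower, Slc11a2 at -0.22 (adjusted p = 0.0084) and Slc11a1 at -0.21 (adjusted p = 0.023). Without both untreated libraries labelled replicate 1, which enter this comparison only indirectly, Slc11a2 was called (edgeR adjusted p = 0.03). With IL4 and bryostatin Slc11a1 had 43.8, 46.1 and 49.6 CPM, against 25, 31.7 and 36.8 CPM with IL4. These groups were apart in the other direction, at 0.59 ± 0.15, just over the threshold (edgeR adjusted p = 0.052). They were called without those 2 libraries (0.58 ± 0.14, edgeR adjusted p = 0.031) and in DESeq2 (0.58, adjusted p = 0.0094). With all libraries kept, edgeR called them with no filter, only the compared groups, all 27 libraries or the replicate block (adjusted p 0.0041 to 0.045). With DESeq2 size factors edgeR did not.

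Hepcidin (Hamp, chr7:30942368-30944032) was near the limit of detection. Its reads summed to 11 counts in LPS with IFNγ and bryostatin (exact Poisson 95% interval 5.49 to 19.7) and 12 in LPS with IFNγ (6.2 to 21), against 1 in LPS with bryostatin (0.0253 to 5.57), 0 with LPS and 0 in untreated cultures, where 0 allows up to 3.69 by the same interval. In experiment 2 there were 0, 0, 1 and 1 counts with IL4 and bryostatin, IL4, bryostatin and no treatment. Reads thus were seen mainly in the 2 groups with IFNγ, among 52674003 counts in LPS with IFNγ and 54520707 with LPS. The intervals cover counting error only, no test was made, and the copy Hamp2 had 0 counts.

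Among the members, Fth1 and Slc11a1 had the most alike profiles over the 27 libraries (Pearson r of log2(CPM + 1) 0.975), Lcn2 and Fth1 had 0.967, and Lcn2 and Slc40a1 had -0.805. The stimulus sets most of these values, the libraries share treatments and controls, and they are given as a description with no test. Within experiment 2 the group means of Lcn2 and Slc40a1 had the same order: bryostatin, IL4 with bryostatin, no treatment, IL4. In that order Lcn2 had 78, 56, 32.2 and 17.2 CPM, and Slc40a1 36.4, 17.5, 16 and 6.83 CPM. Neighbours in this order overlapped for Lcn2, as did IL4 with bryostatin and no treatment for Slc40a1. Of 12297 genes searched, those with the profile most like Lcn2 were Lgals9 (0.993), Oas1a (0.992), Bcl3 (0.991), Shisa5 (0.991) and Bst2 (0.99). For Slc40a1 they were Tlr13 (0.957), P2ry13 (0.952), Alox5 (0.952), Vsir (0.942) and Abhd12 (0.937). For Slc11a1 they were Fth1, Gsr, Ifnar2, Myd88 and Mvp (0.972 to 0.975), and for Trf Dnase2a, C1qb, Nop10, C1qa and H2afx (0.897 to 0.907). Within experiment 2 alone, the values for Lcn2 ran from 0.796 (Shisa5) to 0.959 (Lgals9). Those for Slc40a1 ran from 0.815 (Vsir) to 0.911 (Alox5), for Slc11a1 from 0.76 to 0.834, and for Trf from 0.786 to 0.921. Within experiment 1 alone they ran from 0.988 to 0.995 for Lcn2 and from 0.899 to 0.963 for Slc40a1. There, Slc11a1 had 0.979 to 0.993, and Trf had only 0.616 to 0.782.

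The wider iron pathways were read from 10 lists of 78 genes, of which 76 were found and 67 could be tested in experiment 1. With LPS 20 were called higher and 11 lower, with a median log2 fold change of 0.02, beside 19.5% and 18.8% of all genes and a median of -0.01. The largest rises were in Il6 (8.21 ± 0.3), the cytokine that induces hepcidin in liver, and Steap4 (5.99 ± 0.35), a ferrireductase, at 1131.6 ± 43.3 CPM with LPS and 18.1 ± 10.5 CPM untreated (SD, n = 3 each; edgeR adjusted p = 8.9e-09). Of 10 genes of other iron transport 5 rose and 1 fell, led by Slc39a14, an importer of iron not bound to transferrin, at 221 ± 7.8 CPM with LPS and 64 ± 5.56 CPM untreated (1.81 ± 0.1, adjusted p = 3.1e-10). Of the 3 tested genes for siderophore binding and Lcn2 partners, Mmp9, whose protease Lcn2 binds, rose (3.7 ± 0.27), and Bdh2, proposed to make a mammalian siderophore (-1.19 ± 0.24), and Slc22a17, a proposed Lcn2 receptor (-0.49 ± 0.12), fell.

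With LPS and IFNγ against LPS 25 of 67 were called higher and 16 lower, with a median of 0.06, beside 19.2% and 16.8% of all genes. The heme-degrading enzyme Hmox1 had 2710.4 ± 252.9 CPM with LPS and IFNγ and 156.2 ± 2.99 CPM with LPS (4.13 ± 0.32, edgeR adjusted p = 2.7e-07). In the list of the NRF2 and BACH1 axis, which governs ferritin and heme oxygenase genes, 7 of 8 rose and none fell, with a median of 0.61. Its leading genes were those of the glutathione enzyme subunit Gclm (505 ± 29 CPM with LPS and IFNγ, 77.6 ± 3.1 CPM with LPS; 2.71 ± 0.08, adjusted p = 2.5e-12) and the cystine importer Slc7a11 (2.53 ± 0.17). Slc48a1, a heme transporter, rose by 1.59 ± 0.09, whereas the heme exporter Flvcr1 (-1.03 ± 0.15), the ferric reductase Cybrd1 (-1.56 ± 0.1) and Steap4 (-1.44 ± 0.29) fell. Against no treatment, 32 of 67 were higher and 17 lower with LPS and IFNγ, beside 29.5% and 28.6% of all genes, and iron-sulfur cluster assembly was the one list with most of its genes lower, 5 of 8, with 1 higher and a median of -0.44.

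**Figure D5:**
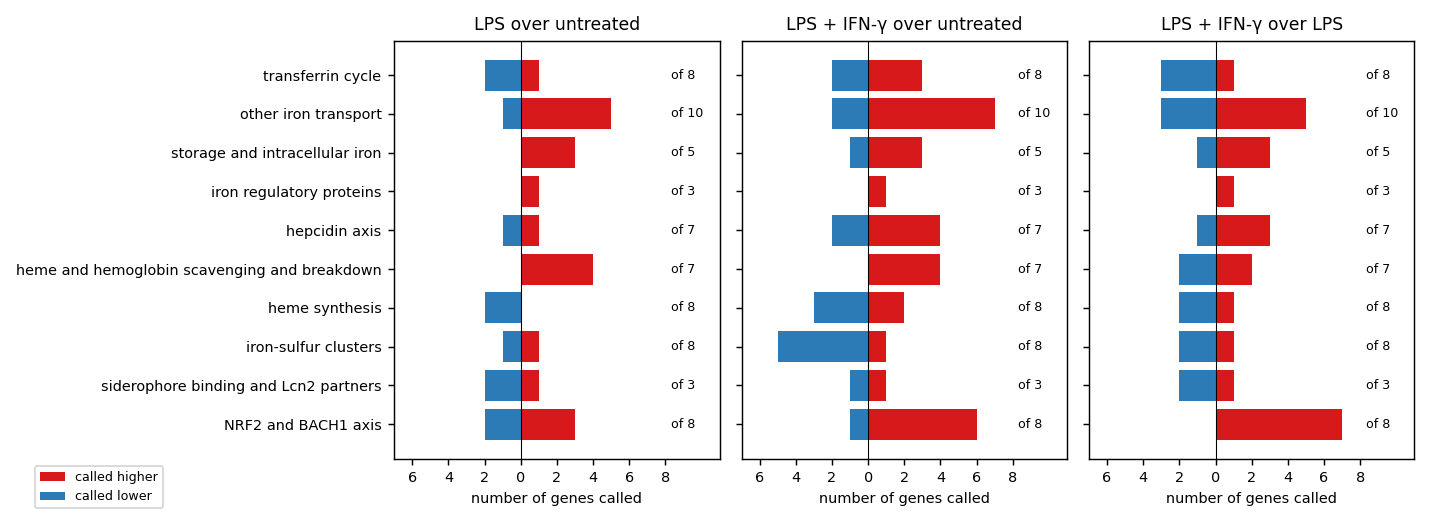
Number of genes called higher (red, right) and lower (blue, left) in each of the 10 iron lists, with the number tested at the right of each panel. The NRF2 and BACH1 axis has 7 of 8 genes higher with LPS and IFNγ over LPS, and 3 higher and 2 lower with LPS over no treatment.

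Bryostatin with LPS called 3 of the 67 higher and 9 lower, with a median of -0.05, beside 3.35% and 3.55% of all genes. The genes that fell included Cybrd1 (74.7 ± 5.35 CPM with LPS and bryostatin, 116.1 ± 7.66 CPM with LPS; -0.62 ± 0.1, edgeR adjusted p = 0.0013), Slc7a11 (-0.83 ± 0.16), Slc22a17 (-0.57 ± 0.12) and Aco1, an iron-regulatory protein (-0.25 ± 0.07). The 3 that rose were Abcg2, an exporter of porphyrins (0.61 ± 0.09), Mmp9 (1.08 ± 0.2) and Smad7, an inhibitor of hepcidin signalling (0.6 ± 0.12). With LPS and IFNγ 3 were higher (Abcg2 0.68 ± 0.1, Il6 0.73 ± 0.15, Mmp9 0.9 ± 0.23) and 3 lower (Slc39a14 -0.49 ± 0.1, Cybrd1 -0.42 ± 0.11, Aco1 -0.28 ± 0.07), beside 1.8% and 1.58% of all genes. These 2 comparisons share no library.

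In experiment 2, with 65 list genes tested, bryostatin alone called 0 higher and 2 lower, beside 2.11% and 1.51% of all genes: Bmp6, a ligand that induces hepcidin (102.9 ± 14.3 CPM with bryostatin, 207.7 ± 52.5 CPM untreated; -1.03 ± 0.17, edgeR adjusted p = 0.01), and Slc22a17 (-0.71 ± 0.17, adjusted p = 0.045). With IL4 it called 3 higher (Slc39a8 0.97 ± 0.23, Blvra 0.75 ± 0.18, Alas1 0.47 ± 0.12) and 3 lower (Gclc -0.98 ± 0.2, Bmp6 -0.85 ± 0.17, Gclm -0.47 ± 0.11), beside 2.7% and 1.42% of all genes. Slc39a8 imports zinc and iron, Blvra makes bilirubin, Alas1 starts heme synthesis, and Gclc and Gclm encode the subunits of glutamate-cysteine ligase. Bmp6 also fell with bryostatin and LPS (-0.54 ± 0.15, adjusted p = 0.045). Over the same 65 genes, the median log2 fold change was 0 with bryostatin alone, -0.03 with IL4 and bryostatin over IL4, and -0.07 with IL4 over no treatment.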

How the data were processed

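RNA was sequenced from unstranded libraries of polyadenylated RNA, 27 in all, 9 groups of 3 taken from the labels. Per the submitters' processing notes, fastp, STAR and featureCounts were used with mm10; their versions are not given in the sources used here. What the authors deposited are unnormalized read counts, and the tests use these. The authors also deposited FPKM values, which equal the counts over gene length and library total times 1 constant per library of 0.9011 to 1.19; they serve for levels per length and ratios.

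Counts were tested with edgeR 4.0.16 in R 4.3.3 (with data.table, version 1.17.8): filterByExpr by group, TMM factors, robust quasi-likelihood fit, each experiment fitted apart with all its groups. Benjamini-Hochberg adjustment covered 16073 genes (experiment 1) or 15604 genes (experiment 2), and a gene was called under 0.05. There were 8 comparisons of groups, 2 differences of bryostatin's effects and 1 such difference across experiments, added after seeing the data. The fit was tested on simulated data, where 56 of 66 genes changed 2-fold in LPS with bryostatin over LPS (84.8%) were recovered, against 40.5% of those changed 1.5-fold; for bryostatin over untreated the shares were 70.2% and 8.96%. CPM use TMM factors over all 27 libraries. Figures were drawn with Python 3.11.15 and matplotlib 3.10.9.

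The members, lists and tests were chosen with earlier results of these data known. Named were all 10 members, up to 2 called genes per iron list and comparison (largest changes, some left out for length; Slc22a17 with LPS was added after its values were seen), and 5 genes of likest profile for 4 members. Likeness was searched among genes that averaged 5 CPM or more in some group. Alternatives were DESeq2 size factors, DESeq2 1.42.0, no filter on low counts, fits of only the compared groups or of all 27 libraries, a replicate block, leaving out each library, and leaving out both untreated libraries labelled replicate 1. Among ferritin copies searched by name, Ftl1-ps1 was the one above 37 counts over all libraries, and copies under other names were not searched. Promoter windows from RefSeq matched 7 of the 10 members.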

Additional observations from a re-analysis of the deposited data

Results flagged for a closer look

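The effect of bryostatin on 3 iron handling genes differed between LPS cultures and IL4 cultures by a test of the difference itself, fitted in edgeR on all 27 libraries and chosen after seeing the data. For Lcn2 the log2 difference was -2.41 ± 0.43 (adjusted p = 0.0023), with all 3 libraries of LPS with bryostatin below those of LPS and all 3 of IL4 with bryostatin above those of IL4. For Slc11a1 it was -0.8 ± 0.17 (adjusted p = 0.01) and for Fth1 -0.69 ± 0.18 (adjusted p = 0.042), with the same separation of libraries in both pairs. Slc11a2 had the same separation and a difference of -0.41 ± 0.13 that missed the threshold (adjusted p = 0.1). Leaving out both untreated libraries labelled replicate 1 gave 5 called members, Cp and Slc11a2 in addition. The Fth1 call was less firm. When each library of the compared groups was left out in turn, it was lost in 11 fits. It held only without replicate 1 of IL4 with bryostatin. With the replicate block it was lost too (edgeR adjusted p = 0.061). The calls of Lcn2 and Slc11a1 held in all these fits. The stimulus and the experiment cannot be told apart in these differences.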

How the results depend on the processing

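Deposited FPKM in place of CPM gave the same direction for all 72 differences of members between groups. That was nearly fixed in advance, since these FPKM are the same counts scaled by gene length and by a factor per library. The factor almost matched the TMM scaling of CPM, so the agreement is no separate check of the processing. Of log2 fold changes of members under the alternatives, 1310 kept direction and side of the threshold, 55 passed it newly, 35 no longer passed it and 40 changed sign.

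The number of members called changed in several comparisons, and the cause was not tested. For LPS with IFNγ over LPS (6 called) it was 8 without both untreated libraries labelled replicate 1. For LPS with bryostatin over LPS (1 called) it was 2 with no filter, 4 with only the compared groups, 0 with all 27 libraries in 1 fit and 3 without both untreated libraries labelled replicate 1, where 13.1% of all genes were called (6.89% with them). For LPS with IFNγ and bryostatin over LPS with IFNγ (0) it was 1 in DESeq2, with no filter and without those 2 libraries. For bryostatin over untreated (1) it was 3 in DESeq2, 0 with only the compared groups, 4 with all 27 libraries and 2 without those 2 libraries. For IL4 over untreated (0) it was 1 in DESeq2, with no filter, with all 27 libraries and with the replicate block. For IL4 with bryostatin over IL4 (2) it was 4 in DESeq2, 7 with only the compared groups, 4 with all 27 libraries and 4 without those 2 libraries, where 8.54% of all genes were called (4.13% with them). For the difference across experiments (3) it was 7 with only the compared groups and 5 without those 2 libraries. Without each library in turn, the numbers were 6 to 7 for LPS over untreated, 9 for LPS with IFNγ over untreated, 5 to 6 for LPS with IFNγ over LPS, 1 for LPS with bryostatin, 0 to 1 for LPS with IFNγ and bryostatin, 0 to 2 for bryostatin, 0 to 1 for IL4, 0 to 2 for IL4 with bryostatin, 0 for both planned differences and 2 to 3 for the added one.

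Fth1 with LPS, IFNγ and bryostatin over LPS with IFNγ (0 in edgeR) was 0.01 with DESeq2 size factors, DESeq2 and the block, 0.02 with only the compared groups and 0 with all 27 libraries. Without both untreated libraries labelled replicate 1, IL4 over untreated was 0.33 for Trf and -0.03 for Slc11a2, and the difference of bryostatin's effect with IL4 minus alone was -0.03 for Lcn2, 0.29 for Tfrc, -0.11 for Trf and 0.01 for Slc11a2. Without 1 library in turn, ranges that cross 0 were -0.08 to 0.86 for Tfrc with LPS over untreated and -0.05 to 0.1 for Ftl1 with LPS and bryostatin over LPS. With LPS, IFNγ and bryostatin over LPS with IFNγ they were -0.12 to 0.09 (Fth1), -0.12 to 0.15 (Slc40a1), -0.08 to 0.12 (Tfrc), -0.05 to 0.1 (Cp) and -0.09 to 0.03 (Slc11a1). With bryostatin over untreated they were -0.09 to 0.15 (Fth1), -0.01 to 0.31 (Ftl1) and -0.21 to 0.65 (Trf), and with IL4 over untreated -0.32 to 0.33 (Trf) and -0.03 to 0.1 (Slc11a2). For bryostatin's effect with LPS and IFNγ minus with LPS, Tfrc had -0.19 to 0.01. For the effect with IL4 minus alone they were -0.03 to 0.82 (Lcn2), -0.06 to 0.52 (Slc40a1), -0.43 to 0.29 (Tfrc), -0.11 to 0.75 (Trf) and -0.13 to 0.01 (Slc11a2).

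Whether replicate numbers pair the libraries was not settled. Deviations of libraries with the same number correlated above 0.1 in 4 of 30 pairs of experiment 1 and 8 of 18 of experiment 2. These correlations ran from -0.443 to 0.458 in experiment 1 and from -0.577 to 0.683 in experiment 2. In the 2 experiments, 8 of 15 and 5 of 12 libraries correlated best with their own number. With the replicate block, Lcn2 with IL4 and bryostatin over IL4 was 1.72 (adjusted p = 0.078), Slc40a1 with IL4 over untreated -1.27 (adjusted p = 0.0068), and Fth1 in the difference across experiments had an adjusted p of 0.061; over all genes it called 963 with LPS and bryostatin over LPS (1108 without) and 564 with IL4 and bryostatin over IL4 (644 without).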
